A study of Mus musculus with 48 samples.

Results

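The 10 genes described here encode chaperones, folding enzymes and regulators of the endoplasmic reticulum (ER), and several are textbook targets of the unfolded protein response. They are Hspa5, Hsp90b1, Pdia4, Calr, Xbp1, Dnajb9, Sdf2l1, Creld2, Hyou1 and Manf. They were chosen by name from the 49585 genes of the deposited tables, with earlier results of these data known. All 10 were found in both tables and passed the filter on low values. The study measured kidney RNA from mice labelled WT that had been treated with D-alanine or with vehicle and were sampled at circadian time (CT) 0, 4, 8, 12, 16 or 20 h. Each of these 12 groups had 4 libraries, 48 in all. D-alanine is the enantiomer of L-alanine, the alanine used in proteins, and the title of the series asks for its effect on circadian rhythm. Dose, route, age, sex and strain are not in the labels. Kidneys from different mice were used and the experiment was performed 2 times, per the series text. The 2 deposited tables, each with 2 libraries of every group, were taken as these runs, which is an inference.

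Secreted and membrane proteins fold in the ER. When folding capacity falls short, the sensors IRE1, PERK and ATF6 are released from the chaperone BiP and start the unfolded protein response. IRE1 splices Xbp1 mRNA into the form that encodes an active transcription factor, ATF6 is cut to release another, and both raise the genes of ER chaperones, while PERK slows translation and raises ATF4. In the kidney the tubule epithelium makes and turns over large amounts of membrane transporters, receptors and, in the loop of Henle, uromodulin.

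Depth was 7626060 to 14403230 fragments per library, recovered from the steps of low values. Even Sdf2l1, the member with the fewest fragments, had 22 to 292 fragments per library, so counting error was largest for this gene. Kidney markers were abundant in every library, with 26000 to 67700 FPKM (fragments per kilobase of exon, scaled to the size of the library) summed over 8 proximal tubule genes. D-alanine CT0 replicate 4 stood apart with the highest of the 48 values for 7 members, and vehicle CT8 replicate 1 with the lowest for 8 members. The main counts are also given without 3 libraries left out together, these and vehicle CT20 replicate 3, a set chosen after the data had been seen.

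The members spanned a wide range of levels. On the FPKM scale, which is scaled to exon length and so allows levels of different genes to be compared, Calr was the most abundant. It encodes calreticulin, a calcium-binding lectin chaperone, and averaged 229 ± 55.5 FPKM in D-alanine and 224 ± 60.5 FPKM in vehicle kidneys (SD, n = 24 each). Hspa5, which encodes BiP, the ER Hsp70, followed with 97.3 ± 34.9 FPKM in D-alanine and 85.8 ± 30.1 FPKM in vehicle. Hsp90b1, which encodes the ER Hsp90 GRP94, averaged 81.7 ± 20.7 FPKM in D-alanine and 74.9 ± 19.5 FPKM in vehicle. Xbp1, the transcription factor gene, averaged 41 ± 9.09 FPKM in D-alanine and 37.7 ± 7.75 FPKM in vehicle. A gene-level FPKM does not separate spliced from unspliced Xbp1. Pdia4, a protein disulfide isomerase, averaged 34.5 ± 8 FPKM in D-alanine and 33 ± 7.85 FPKM in vehicle, and Creld2, an ER-resident EGF-like protein, 28.1 ± 11.8 FPKM in D-alanine and 25.2 ± 10.5 FPKM in vehicle. The lowest were Manf, an ER protein that is secreted under stress, Dnajb9 (ERdj4, a BiP co-chaperone), Hyou1 (GRP170, a nucleotide exchange factor of BiP) and Sdf2l1, a partner of ERdj co-chaperones. Manf averaged 18.3 ± 7.49 FPKM in D-alanine and 16.1 ± 6.09 in vehicle, and Dnajb9 16.5 ± 5.27 in D-alanine and 14.6 ± 3.34 in vehicle. Hyou1 averaged 13.3 ± 5.29 FPKM in D-alanine and 10.9 ± 3.64 in vehicle, and Sdf2l1 8.54 ± 4.82 in D-alanine and 7.89 ± 4.32 in vehicle. Neighbours in this order overlapped in their ranges over libraries, for example Hspa5 (31.4 to 185 FPKM) and Hsp90b1 (37.2 to 131 FPKM).

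All 10 are protein-coding genes, and the deposited tables place them on 9 chromosomes of GRCm38 (mm10). Hspa5 (ENSMUSG00000026864) lies at chr2:34771970-34777547, Hsp90b1 (ENSMUSG00000020048) at chr10:86690209-86705509, Pdia4 (ENSMUSG00000025823) at chr6:47796141-47813430 and Calr (ENSMUSG00000003814) at chr8:84841850-84846934. Xbp1 (ENSMUSG00000020484) lies at chr11:5520659-5525893, Dnajb9 (ENSMUSG00000014905) at chr12:44205897-44210068, Sdf2l1 (ENSMUSG00000022769) at chr16:17130138-17132383 and Creld2 (ENSMUSG00000023272) at chr15:88819646-88826681. Hyou1 (ENSMUSG00000032115) at chr9:44379490-44392369 and Manf (ENSMUSG00000032575) at chr9:106838312-106891979 share a chromosome. Of the exon bases of Hsp90b1, 10.3% lie opposite the gene 1810014B01Rik, and of those of Manf 4.71% lie opposite 4930524O07Rik and 4.14% opposite Dcaf1. The sources used here do not say whether strand was counted, so fragments in these stretches are uncertain.

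Promoter sequences are shown because ER chaperone genes are known to share the ER stress response element (ERSE), to which ATF6 and XBP1 bind together with NF-Y. The search used the RefSeq windows of build GRCm38.p6, from 250 bases before to 50 after each gene's start, on both strands. Windows were found for 8 of the 10 members; those of Hyou1 and Manf are not used here. The ERSE, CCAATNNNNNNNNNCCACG, was present in the windows of 4 of the 8, namely Hspa5, Hsp90b1 (at 2 places), Calr and Creld2, and in 37 of all 27025 genes with a window (0.137%). In the lines below, read on the gene's own strand from 5′ to 3′, capitals mark the fixed letters at the ends of each ERSE. CGTGG with ATTGG is the same element on the other strand.
Hspa5, chr2:34772020-34772048, plus strand: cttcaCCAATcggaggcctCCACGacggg
Hsp90b1, chr10:86705528-86705661, minus strand: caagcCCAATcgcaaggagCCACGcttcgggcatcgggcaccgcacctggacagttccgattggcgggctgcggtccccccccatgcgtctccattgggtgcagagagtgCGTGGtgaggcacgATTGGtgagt
Calr, chr8:84847070-84847098, minus strand: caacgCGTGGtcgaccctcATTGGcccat
Creld2, chr15:88819515-88819543, plus strand: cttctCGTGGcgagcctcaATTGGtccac
Counted from the RefSeq start, the element of Hspa5 lay 65 to 47 bases before it and that of Calr 162 to 144. That of Creld2 lay 126 to 108 bases before it, and those of Hsp90b1 212 to 194 and 107 to 89. The RefSeq starts of Hspa5, Hsp90b1 and Calr differ from the deposited ones. The element of Hspa5 lies inside the deposited coordinates of that gene.

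Sdf2l1, which had the largest daily amplitude of the members, held CCAAT and CCACG in its window but not at the ERSE spacing. Xbp1 and Dnajb9, the members not called rhythmic, are shown for contrast. Here capitals mark every CCAAT and CCACG on either strand in the 250 bases before the RefSeq start.
Sdf2l1, chr16:17132384-17132633, minus strand: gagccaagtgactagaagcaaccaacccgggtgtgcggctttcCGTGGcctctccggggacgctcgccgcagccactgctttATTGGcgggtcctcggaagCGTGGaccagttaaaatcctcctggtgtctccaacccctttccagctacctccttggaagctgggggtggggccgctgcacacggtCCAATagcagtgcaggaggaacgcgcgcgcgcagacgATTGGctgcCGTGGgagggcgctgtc
Xbp1, chr11:5520391-5520640, plus strand: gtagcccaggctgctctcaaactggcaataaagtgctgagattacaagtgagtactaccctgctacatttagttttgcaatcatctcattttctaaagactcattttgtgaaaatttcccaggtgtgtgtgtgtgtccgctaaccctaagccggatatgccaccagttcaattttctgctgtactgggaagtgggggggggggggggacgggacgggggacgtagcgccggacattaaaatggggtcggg
Dnajb9, chr12:44210069-44210318, minus strand: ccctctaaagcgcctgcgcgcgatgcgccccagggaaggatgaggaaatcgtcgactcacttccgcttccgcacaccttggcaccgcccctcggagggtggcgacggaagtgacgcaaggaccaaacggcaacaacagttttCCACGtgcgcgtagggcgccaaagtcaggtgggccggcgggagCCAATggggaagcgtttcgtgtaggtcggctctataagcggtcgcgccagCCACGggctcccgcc
Sdf2l1 showed 3 CCAAT and 3 CCACG, Dnajb9 1 and 2, and Xbp1 none of either. Pdia4, a rhythmic member whose sequence is not shown, held no ERSE. In its 250 bases it had 3 CCAAT and 0 CCACG. A link between these letters and rhythm was not tested. In Dnajb9 the first CCACG overlaps a CACGTG. Across the whole windows, CCAAT was found in 7 of the 8 members against 41.1% of all genes, and CCACG in 7 of 8 against 35.5%, both with Xbp1 as the exception. ERSE-II (0.0444% of all genes), the UPRE core TGACGTGG (0.714%) and a heat shock element (0.662%) were found in 0 of 8. The E-box CACGTG, the site of the clock activators, was in 2 of 8, Calr and Dnajb9, against 8.09% of all genes. A match is a stretch of letters and not a measured binding site.

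The first comparison asked how the members moved over the circadian day. For 8 of them the mean over both treatments was highest at CT16 or CT20 and lowest at CT8 or CT12. In a limma fit of a 24 h curve shared by both treatments (Benjamini-Hochberg adjustment), 8 of 10 members were rhythmic, where 26.5% of all 14922 genes were. Since the members were chosen with earlier results of these data known, the higher share is not an independent finding. The 8 were Hspa5, Hsp90b1, Pdia4, Calr, Sdf2l1, Creld2, Hyou1 and Manf. They stayed called when any 1 of the 48 libraries was left out, and with the 3 libraries left out together (21.5% of all genes called). Time as a factor, which assumes no curve, called 8 (20.5% of all genes).

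**Figure D1:**
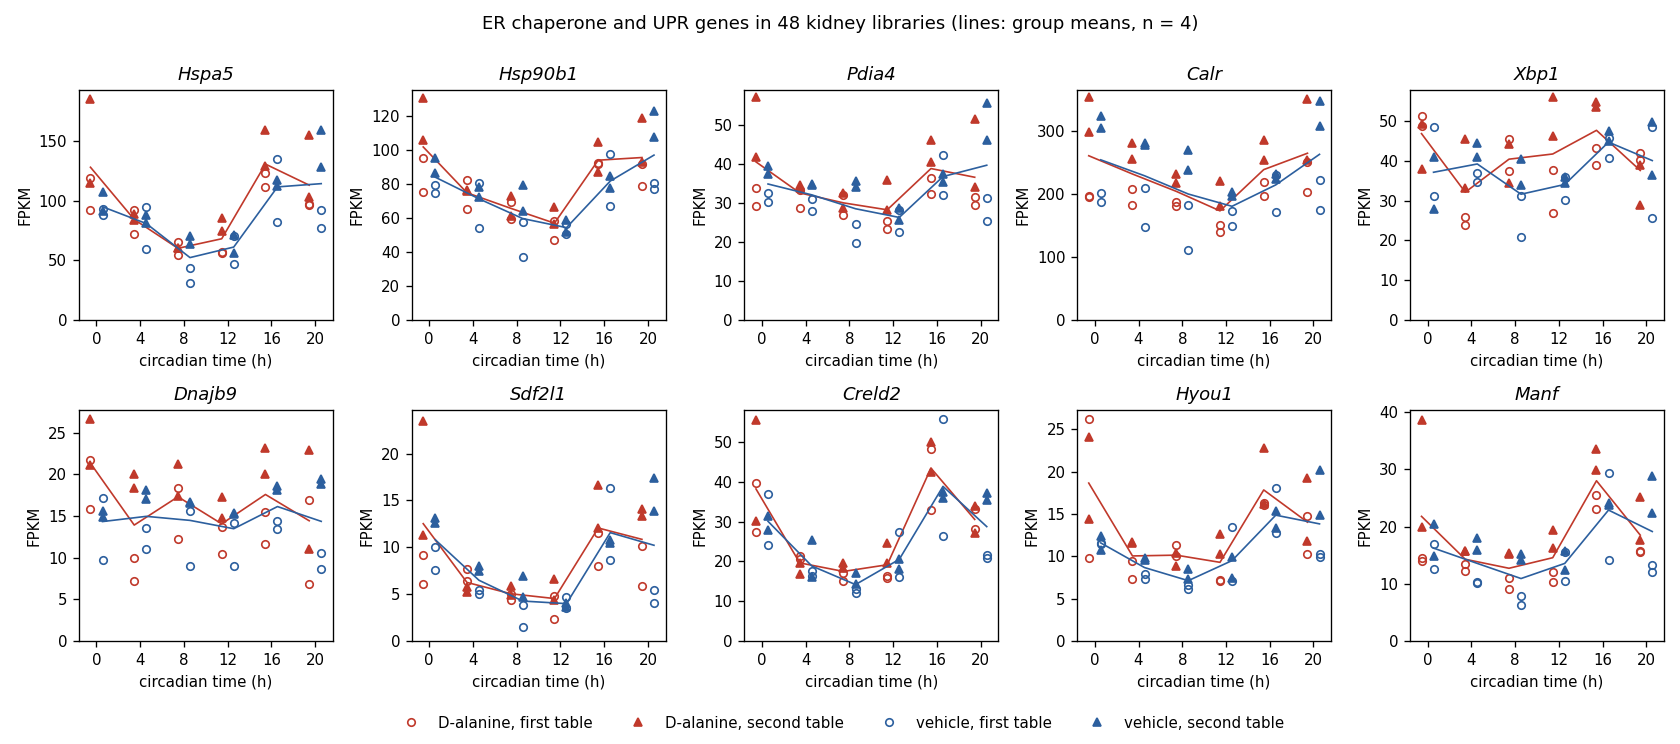
FPKM of each member (y axes, linear from 0) against circadian time in hours, for D-alanine (red) and vehicle (blue) libraries of the first (circles) and second (triangles) table, with lines through the means of 4 libraries. Hspa5 stands highest at CT16 to CT0 in both treatments, while Xbp1 and Dnajb9 show no common trough.

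Hspa5 shows the pattern. Over both treatments (n = 8 per time) its lowest, median and highest FPKM were 88.2, 99.7 and 185 at CT0, 59.7, 86 and 94.6 at CT4, 31.4, 60.4 and 70.2 at CT8, 47, 63.6 and 85.4 at CT12, 81.8, 120 and 159 at CT16, and 77.3, 99.8 and 159 at CT20. The ranges at CT0, CT16 and CT20 lay above that of CT8 without overlap. Its mean was 2.15 times as high at CT16 as at CT8. The fitted log2 amplitude, the distance from the middle of the curve to its peak on the log2(FPKM + 1) scale, was 0.55 ± 0.06 (SE), with a peak at CT20.4 (adjusted p = 2.76e-09, limma).

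Sdf2l1 had the largest relative swing. Its lowest, median and highest FPKM were 6.09, 10.6 and 23.5 at CT0, 5.01, 6.08 and 7.96 at CT4, 1.55, 4.79 and 6.96 at CT8, 2.33, 4.26 and 6.62 at CT12, 8.05, 11.1 and 16.6 at CT16, and 4.08, 11.7 and 17.4 at CT20. All 8 libraries at CT16 lay above all 8 at CT12, whereas CT20 spread over both levels. The amplitude was 0.66 ± 0.09 with a peak at CT20.7 (adjusted p = 6.09e-07, limma). Creld2 was close to it, with 24.2, 30.8 and 55.6 FPKM (lowest, median, highest) at CT0, 16.1, 18.7 and 25.3 at CT4, 12.1, 16 and 19.5 at CT8, 15.8, 18.9 and 27.3 at CT12, 26.3, 39.8 and 55.7 at CT16 and 20.9, 30.6 and 37.1 at CT20. Its amplitude was 0.59 ± 0.07 and its peak at CT19.4 (adjusted p = 5.57e-08, limma). The mean of Creld2 at CT16 was 2.6 times that at CT8, and that of Sdf2l1 at CT16 was 2.77 times that at CT12.

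Hsp90b1, Calr and Pdia4 had smaller swings and later fitted peaks. Hsp90b1 had an amplitude of 0.39 ± 0.04 with its peak at CT21.3 (adjusted p = 8.87e-09, limma), and Calr 0.26 ± 0.04 at CT22.3 (adjusted p = 6.18e-06). Means of Hsp90b1 at the highest and the lowest time, CT20 and CT12, were 96.5 ± 18.2 and 55.8 ± 5.96 FPKM, and those of Calr were 264 ± 65.8 and 178 ± 28.9 FPKM (SD, n = 8 each). Pdia4 had an amplitude of 0.23 ± 0.04 with its peak at CT21.1 (adjusted p = 0.000158, limma). Its means at CT20 and CT12 were 38.1 ± 11.3 and 27.3 ± 4.2 FPKM.

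Hyou1 and Manf had fitted peaks near that of Creld2. Hyou1 had an amplitude of 0.43 ± 0.07 at CT19.6 (adjusted p = 1.16e-05, limma) and Manf 0.43 ± 0.06 at CT18.8 (adjusted p = 3.78e-06). Manf averaged 25.5 ± 5.84 FPKM at CT16 and 11.8 ± 3.71 at CT8, and Hyou1 16.3 ± 3.12 FPKM at CT16 and 8.64 ± 1.88 at CT8 (SD, n = 8). The fitted peaks of the 8 members thus spanned CT18.8 to CT22.3, with standard errors of 0.402 to 0.688 h. Among all genes tested, the amplitudes of the 8 stood at percentiles 90.4 (Pdia4) to 99.7 (Sdf2l1), and the median amplitude was 0.0961 over all genes and 0.163 over the rhythmic ones.

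Xbp1 and Dnajb9 did not pass the test. Xbp1 had an amplitude of 0.14 ± 0.06 (adjusted p = 0.159, limma) and lay within 20.9 to 56 FPKM over all libraries. Its means were 41.9 ± 8.91 FPKM at CT0, 35.6 ± 7.98 at CT4, 36 ± 7.9 at CT8, 37.8 ± 9.25 at CT12, 46.1 ± 5.61 at CT16 and 38.8 ± 8.52 at CT20 (SD, n = 8). Dnajb9 had an amplitude of 0.04 ± 0.07 (adjusted p = 0.9, limma). Its means were 17.9 ± 5.21 FPKM at CT0, 14.5 ± 4.66 at CT4, 15.9 ± 3.78 at CT8, 13.8 ± 2.71 at CT12, 16.9 ± 3.78 at CT16 and 14.4 ± 5.85 at CT20. The times of both genes overlapped throughout, and neither was called in any of the 48 fits that left out 1 library.

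The rhythm was present in each treatment. D-alanine kidneys had 8 rhythmic members (8.3% of all genes) and vehicle kidneys 8 (9.77% of all genes), the same 8 genes. Amplitudes in D-alanine and vehicle were 0.54 ± 0.08 and 0.56 ± 0.08 for Hspa5, 0.65 ± 0.13 and 0.67 ± 0.13 for Sdf2l1, and 0.60 ± 0.10 and 0.58 ± 0.10 for Creld2 (SE). Peak times of Hspa5 were CT20.5 in D-alanine and CT20.4 in vehicle, and those of Manf were CT18.8 in both. Among the 8, Hyou1 had the widest gap, CT20.3 ± 0.875 h in D-alanine and CT19 ± 0.783 h in vehicle. The test of a different rhythm in limma called 0 of 10 members, 0 of them at an unadjusted p under 0.05, and 0 of all genes (353 unadjusted, 2.37%), and Hyou1 had the smallest member p (0.533 unadjusted, adjusted p = 1, limma). Pdia4 was close to the threshold in D-alanine (adjusted p = 0.0482, limma) and kept its call in 14 of the 48 fits that left out 1 library. When D-alanine libraries were fitted alone, 6 members were called, with Pdia4 and Hyou1 lost (4.68% of all genes), and vehicle libraries alone gave 8 (11.7%). Without the 3 libraries, each treatment had 7, with Pdia4 lost in both (7.09% of all genes in D-alanine and 6.84% in vehicle).

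**Figure D2:**
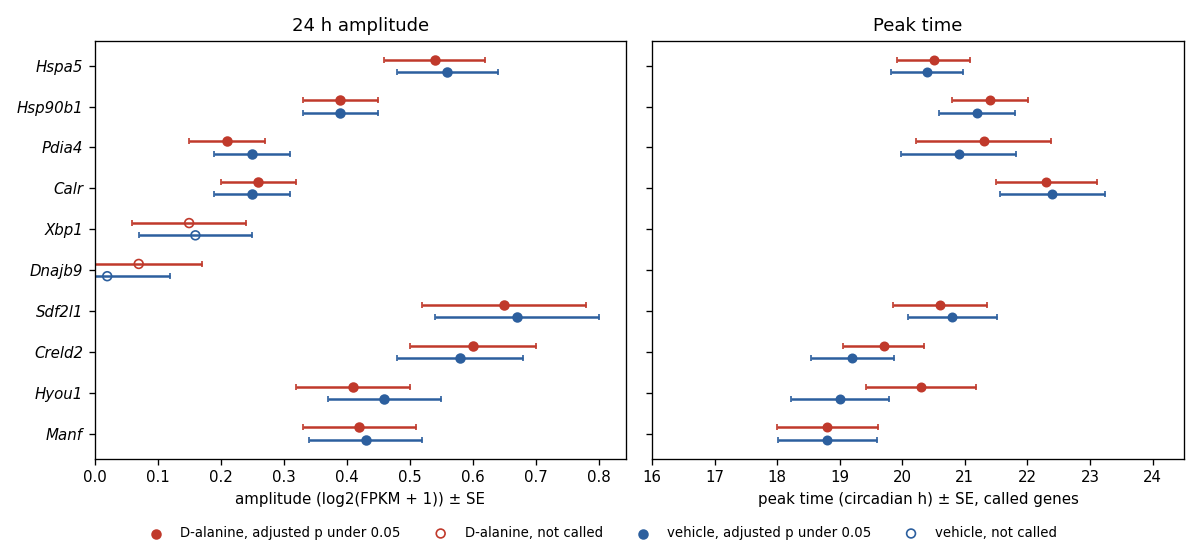
Fitted 24 h amplitude on the log2(FPKM + 1) scale (left) and peak time in circadian hours for called genes (right), with standard errors, for D-alanine (red) and vehicle (blue). Error bars of the treatments overlap for the amplitude of every member, and filled points have an adjusted p under 0.05.

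Each table gave the pattern with different strength. In the first table alone limma called 4 members, Hspa5, Hsp90b1, Creld2 and Manf (12.3% of all genes called). There 8 had an unadjusted p under 0.05, but the share of all genes at this unadjusted threshold was not computed. In the second table alone all 8 were called (20.7% of all genes). The peak of Hspa5 was CT20.6 in the first and CT20.3 in the second table, that of Creld2 CT19.5 and CT19.4, and that of Calr CT21.1 and CT23.1. Sdf2l1 had an amplitude of 0.50 ± 0.14 in the first and 0.82 ± 0.09 in the second table. Members also differed in level between tables, for example Calr with 267 ± 49.2 FPKM in the second and 187 ± 31.5 in the first (SD, n = 24 each). Mitochondrial genes took 14.9% to 23.4% of all FPKM in the second table and 28.9% to 47% in the first. The part of this share in the level differences was not tested.

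The climb of the 8 members fell between CT12 and CT16. The comparison of adjacent times, added after the data had been seen, called 8 members higher at CT16 than at CT12 in limma with both treatments together, where 1.5% of all genes were called higher and 2.46% in either direction. The log2 changes were 1.28 ± 0.20 for Sdf2l1 (adjusted p = 0.000105), 1.01 ± 0.14 for Creld2 (adjusted p = 3.3e-05) and 0.90 ± 0.13 for Hspa5 (adjusted p = 3.4e-05, limma). Manf (0.80), Hyou1 (0.76), Hsp90b1 (0.64), Pdia4 (0.46) and Calr (0.36, adjusted p = 0.0388, limma) rose less. Xbp1 (0.30 ± 0.14, adjusted p = 0.28) and Dnajb9 (0.27 ± 0.15, adjusted p = 0.391, limma) did not pass.

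The libraries show this step directly. Hspa5 stood at 111, 123, 159 and 129 FPKM at CT16 and at 56, 56.9, 74.2 and 85.4 at CT12 in D-alanine kidneys, and at 81.8, 135, 117 and 112 at CT16 and 70.4, 47, 56.5 and 70.9 at CT12 in vehicle kidneys. In both treatments every CT16 library lay above every CT12 library. Hsp90b1 stood at 92.1, 92.4, 105 and 87.3 FPKM at CT16 and 47.1, 58.4, 56.4 and 66.7 at CT12 in D-alanine, and at 67.4, 97.6, 84.7 and 78 at CT16 and 56.4, 50.8, 52.1 and 58.8 at CT12 in vehicle. Again the times did not overlap within either treatment. Creld2 in vehicle did overlap, since replicate 1 had 26.3 FPKM at CT16 and 27.3 at CT12. All 10 members had a higher mean at CT16 than at CT12 in 4 of 4 sets of treatment and table. The first table alone called 0 members for this step in limma (0.0536% of all genes called). There 8 had an unadjusted p under 0.05, but the share of all genes at this unadjusted threshold was not computed. The second table alone called 5 (1.45%). The count was 8 without the 3 libraries (2.29% of all genes called in either direction). It was 7 or 8 when 1 library was left out, where Calr was the gene lost.

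Marker sums of several cell types were also higher at CT16 than at CT12. Summed over 4 inner medulla markers, the median of 8 libraries was 88.8 FPKM at CT16 and 21.5 at CT12, with ranges of 27.4 to 229 and 11.4 to 169. Over 6 collecting duct markers it was 633 at CT16 and 441 at CT12, with ranges of 378 to 1130 and 310 to 755. The median sum of red blood cell markers was 259 FPKM at CT16 and 173 at CT12, with ranges of 215 to 344 and 123 to 265. For endothelium it was 41.7 at CT16 and 28.3 at CT12, with ranges of 36 to 54.2 and 22 to 54.4, and for the loop of Henle 527 at CT16 and 398 at CT12, with ranges of 304 to 805 and 203 to 553. The ranges overlapped in each of these 5 lists, and the part of these cell types in the step was not tested. Proximal tubule markers had a median sum of 49400 FPKM at both times. Kap, the most abundant of these 8 genes, weighs most in that sum, and 3 of the 8 were called rhythmic. Equal sums therefore do not show an equal share of tubule cells. In whole kidney RNA, fewer cells of a type and less RNA per cell cannot be told apart.

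The descent was more gradual. At CT4 against CT0, 5 members were lower, Hspa5, Hsp90b1, Sdf2l1, Creld2 and Hyou1 (4.05% of all genes were lower and 7.88% called in either direction), led by Creld2 at -0.77 ± 0.14 (adjusted p = 0.000471, limma) and Sdf2l1 at -0.70 ± 0.20 (adjusted p = 0.0225). This count rested on single libraries. It was 2 without D-alanine CT0 replicate 2 or D-alanine CT4 replicate 4. It was 3 without any 1 of D-alanine CT0 replicate 4, D-alanine CT4 replicate 1 or 3, vehicle CT0 replicate 1 or 4, and vehicle CT4 replicate 2, 3 or 4. Without the 3 libraries together it was 4, with Hspa5 lost (10.2% of all genes called in either direction). Creld2 was called in all 48 fits that left out 1 library and Sdf2l1 and Hyou1 each in 47. At CT8 against CT4 only Hspa5 was lower (-0.57 ± 0.13, adjusted p = 0.0144, limma, with 0.302% of all genes lower and 0.797% called in either direction). No member was called in limma between CT8 and CT12 (1 unadjusted, 0.228% of all genes called and 11.9% unadjusted), between CT16 and CT20 (2 unadjusted, Creld2 at -0.45 and Manf at -0.44, 0.503% and 7.61% unadjusted) or between CT20 and CT0 (1 unadjusted, Dnajb9 at 0.34, 0.429% and 12.4% unadjusted).

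**Figure D3:**
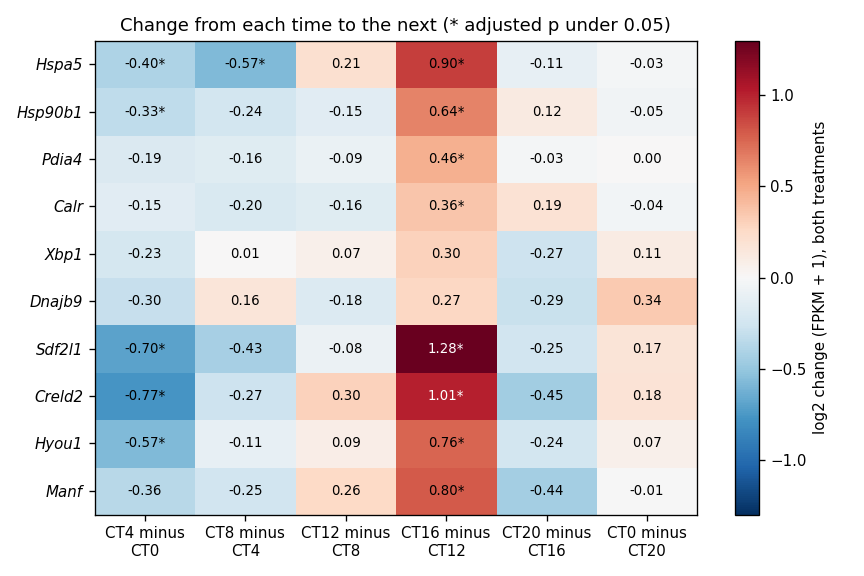
Log2 change (FPKM + 1) of each member from one time to the next, over both treatments, with an asterisk where the adjusted p was under 0.05. The CT16 minus CT12 column is above 0 for all 10 members, from 0.27 for Dnajb9 to 1.28 for Sdf2l1.

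The second comparison asked whether D-alanine changed the members' levels. No member passed. In limma over all 6 times, 0 of 10 were called and 4 had an unadjusted p under 0.05, against 1.74% of all genes called and 20.5% unadjusted. Without the 3 libraries, 0 were called (1.43% of all genes called). In that fit 3 had an unadjusted p under 0.05, but the unadjusted share of all genes was not computed. All 10 estimates were above 0, as were 76.3% of all genes. Their median log2 change was 0.13, where the median over all genes was 0.06.

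Hyou1 came closest. Its lowest, median and highest values were 7.07, 11.6 and 26.2 FPKM in the 24 D-alanine libraries and 6.15, 10.1 and 20.2 in the 24 vehicle libraries. The ranges overlapped almost completely, and within pairs of time and table the D-alanine mean was higher in 10 of 12. The log2 change was 0.24 ± 0.09 (95% interval 0.07 to 0.41, adjusted p = 0.112, limma). It passed when vehicle CT12 replicate 1 was left out (0.28, adjusted p = 0.0432) or D-alanine CT0 replicate 1 (0.28, adjusted p = 0.0479, limma). Hspa5 (0.18 ± 0.07, adjusted p = 0.15), Manf (0.18 ± 0.08, adjusted p = 0.189) and Hsp90b1 (0.13 ± 0.06, adjusted p = 0.208, limma) followed. The others lay between 0.05 for Calr (95% interval -0.07 to 0.16) and 0.15 for Creld2 (95% interval -0.01 to 0.31).

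Scaling bears on these values. With each library rescaled to TPM, where the median of all genes is 0.1064, limma called 4 members, Hspa5, Hsp90b1, Hyou1 and Manf, at log2 changes of 0.19 to 0.31 (14.2% of all genes called). Quantile normalization, median centring and rescaling without mitochondrial genes called 0 members. Of all genes they called 0.0938%, 0.154% and 0.319% in that order, with median changes of -0.0042, -0.0133 and 0.043. With median centring Pdia4 and Calr turned below 0. The number of rhythmic members was 8 under each of these scalings.

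At single times no member was called in limma at any of the 6 times. Unadjusted, 3 members passed at CT0, where 1.14% of all genes were called and 22% passed unadjusted, and 1 member, Hyou1, at CT8, where 0% were called and 14.8% passed unadjusted. At CT4, CT12, CT16 and CT20, 0 members passed unadjusted and 0% of all genes were called, with 2.55%, 2.27%, 4.74% and 2.57% unadjusted in that order. Without the 3 libraries, among them D-alanine CT0 replicate 4, 0 members were called at CT0 (3.04% of all genes called). In that fit 1 member passed unadjusted and 8 of 10 were above 0, where all libraries gave 10 of 10. The shares of all genes that passed unadjusted or lay above 0 in it were not computed. At CT0 Hyou1 stood at 9.85, 26.2, 14.4 and 24.1 FPKM in D-alanine and 11.6, 11.5, 10.8 and 12.4 in vehicle kidneys (0.55 ± 0.21, adjusted p = 0.124, limma). Of the D-alanine libraries 3 lay above all vehicle libraries and replicate 1 lay below them. Dnajb9 stood at 15.8, 21.8, 21.1 and 26.7 FPKM in D-alanine and 17.2, 9.69, 14.9 and 15.6 in vehicle (0.55 ± 0.21, adjusted p = 0.129, limma). Hspa5 stood at 92.5, 119, 115 and 185 FPKM in D-alanine and 92.6, 88.2, 91.7 and 107 in vehicle (0.38 ± 0.18, adjusted p = 0.201, limma). Leaving out D-alanine CT0 replicate 1 brought Hyou1 at CT0 to 0.77 (adjusted p = 0.0368), and leaving out vehicle CT0 replicate 1 brought Dnajb9 to 0.73 (adjusted p = 0.0377, limma). With TPM both were called at CT0, Hyou1 at 0.70 (adjusted p = 0.0433) and Dnajb9 at 0.70 (adjusted p = 0.0462, limma). D-alanine CT0 replicate 2, with the highest Hyou1 of all libraries, also had the highest sums of collecting duct (3100 FPKM, median of all libraries 391) and inner medulla markers (651 FPKM, median 32.8). Its sums of endothelium (143 FPKM, median 39) and fibroblast markers (52.8 FPKM, median 27.5) were the highest too. Its plasma and B cell sum was the second highest (459 FPKM, median 54.9). The part of these cell types was not tested.

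The D-alanine difference did not pass as a function of time either. The treatment by time interaction called 0 members and 0 genes in limma (0 members and 3.53% of genes unadjusted). At CT20 all 10 members were above 0 in the first table alone and 0 of 10 in the second, and without the 3 libraries 10 of 10, where all libraries gave 6. At CT12 1 of 10 was above 0 in the first and 10 of 10 in the second. The share of all genes above 0 in these fits was not computed, so these directions cannot be called particular to the members. The treatment by table interaction called 0 members and 0 genes (0 members and 3.84% of genes unadjusted). It compares the tables over all 6 times together, where opposite directions at CT12 and CT20 can cancel. A difference between tables at single times was not tested.

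**Figure D4:**
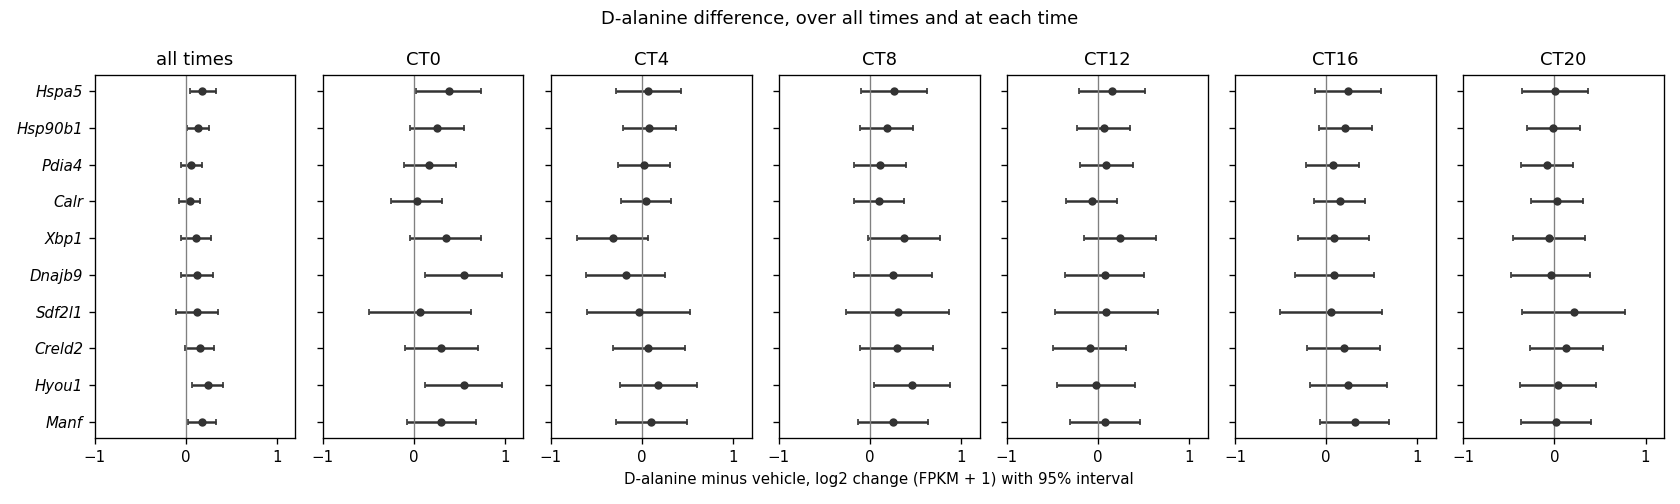
D-alanine minus vehicle for each member as log2 change (FPKM + 1) with 95% intervals, over all times (left panel) and at each time. Intervals at single times are wide, and those of Hspa5, Dnajb9 and Hyou1 at CT0 lie above 0 before adjustment, with no adjusted p under 0.05.

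The members resembled each other to different degrees. Across the 12 group means (each table centred first, both treatments in the same 48 libraries), the 8 rhythmic members correlated with r of 0.56 to 0.98 with each other, with a median of 0.91. Pdia4 and Hsp90b1 were the closest pair. Xbp1 and Dnajb9 had r of 0.76 with each other, 0.27 to 0.76 (Xbp1) and 0.22 to 0.57 (Dnajb9) with the 8. Similar profiles were sought outside the members, the ER lists, the cytosolic and mitochondrial chaperones listed for contrast, and genes with clone names. Of the genes left, the 6 closest to the mean of the members were Stip1 (0.98), Ptges3 (0.98), R3hdm1 (0.97), Spag1 (0.96), Ahsa1 (0.96) and Dnaja4 (0.96), with peaks from CT19.8 to CT21. Stip1, Ptges3 and Ahsa1 encode co-chaperones of cytosolic Hsp90. These correlations describe 12 points that share libraries and tables.

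Other genes of the pathway, taken from 9 lists of ER functions, were called rhythmic at a rate that depended on the libraries used. The lists too were chosen with earlier results of these data known. Of 119 tested genes beside the members, 43 were rhythmic (36.1%, against 26.5% of all genes) with a median amplitude over the 119 of 0.084. Without the 3 libraries the count was 27 (22.7%, against 21.5% of all genes), in the first table alone 12 (10.1%, against 12.3%) and in the second alone 33 (27.7%, against 20.7%). Of the 43, 29 peaked between CT16 and CT22.5, a window chosen after the data had been seen, in which 30.2% of all rhythmic genes peaked (7.99% of all genes tested). Among the Hsp70 cycle and lectin chaperones 7 of 14 were rhythmic, with Dnajb11 (a BiP co-chaperone) at an amplitude of 0.23 ± 0.03 peaking at CT21.3, Dnajc3 at 0.22 ± 0.04 and CT22.3, Canx (calnexin) at 0.19 ± 0.04 and CT23.1, and Cnpy2 at 0.12 ± 0.03 and CT7.27. Disulfide isomerases and oxidoreductases gave 9 of 14, led by Pdia6 (0.29 ± 0.04, CT21.9), Pdia5 (0.24 ± 0.04, CT20.1), Pdia3 (0.18 ± 0.04, CT22.5) and Txndc11 (0.11 ± 0.03, CT17.3). Prolyl isomerases gave 0 of 8 in limma, with Ppic (0.12, adjusted p = 0.164) and Fkbp9 (0.11, adjusted p = 0.249, limma) nearest, and 0 of these 8 were called for D-alanine.

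ER-associated degradation, which removes misfolded proteins, gave 8 of 18. The ubiquitin ligase gene Syvn1 (0.30 ± 0.05, CT19.2), Derl3 (0.42 ± 0.07, CT19.6) and the ubiquitin-conjugating enzyme gene Ube2g2 (0.33 ± 0.06, CT21.4) peaked with the members. Herpud1 had an amplitude of 0.35 ± 0.03 and peaked at CT12.6, when the 8 members were low. Of the 14 genes of this list with a promoter window, Syvn1 and Derl3 held an ERSE and Herpud1 an ERSE-II. In the other ER lists an ERSE was in Canx, Dnajc3 and Pdia6. ERSE-II was in Dnajb11, which peaked at CT21.3, and in Krtcap2, which was not called rhythmic (adjusted p = 0.18, limma). Whether the element goes with the peak time was not tested. The sensors and transcription factors gave 2 of 10, Creb3l1 (0.31 ± 0.04, CT0.0609) and the ATF6-cutting protease gene Mbtps1 (0.08 ± 0.02, CT2). Atf6, Ern1 (IRE1) and Eif2ak3 (PERK) were not called, with adjusted p of 0.654, 0.626 and 0.0622 in limma. These 3 were named for their role after their values had been seen. The PERK branch and stress outputs gave 3 of 12, Dnajc3, Ddit3 (CHOP, 0.31 ± 0.06, CT16.8) and Atf4 (0.21 ± 0.05, CT19.1).

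The translocon gave 5 of 15, led by Spcs2 (0.14 ± 0.03), N-glycosylation 6 of 12, led by Ostc (0.20 ± 0.03, CT21.5), and COPII transport 4 of 17, led by Sec24d (0.17 ± 0.05, CT20.8). Of cytosolic and mitochondrial chaperones, listed for contrast, 6 of 12 were rhythmic. Hsp90aa1 (0.52 ± 0.07, CT21.6) and Hsp90ab1 (0.25 ± 0.04, CT21.2) peaked within the span of the 8 members. Dnaja1 (0.29 ± 0.06, CT18.5) and Hspa8 (0.33 ± 0.08, CT16.5) peaked before it. For D-alanine, 1 of the 119 ER genes was called higher, the glucosidase gene Mogs (0.15 ± 0.04, adjusted p = 0.0414), and 1 of the 12 cytosolic and mitochondrial chaperones, Dnajb1 (0.25 ± 0.06, adjusted p = 0.0207, limma).

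**Figure D5:**
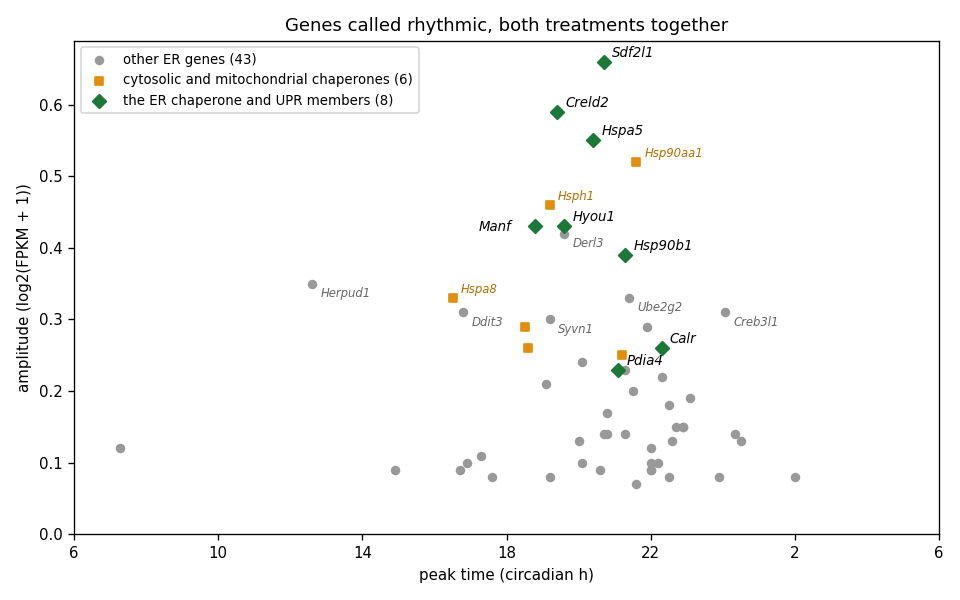
Peak time in circadian hours (x axis, running from 6 over 24 to 6) against 24 h amplitude for genes called rhythmic with both treatments together. The 8 members (green diamonds) lie between CT18.8 and CT22.3, Herpud1 peaks at CT12.6, and 43 other ER genes (grey) and 6 cytosolic or mitochondrial chaperones (orange) are shown.

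Markers of cell types rich in ER were examined beside these results. Plasma cell and B cell markers (13 genes, Tnfrsf17 at a median of 0) summed to 24.9 to 1350 FPKM in D-alanine kidneys, with a median of 54.8, and to 31 to 308 in vehicle kidneys, with a median of 56.7. By time their medians were 87.6 at CT0, 57 at CT4, 56.3 at CT8, 47.8 at CT12, 52.5 at CT16 and 46.7 FPKM at CT20, and 1 of 10 tested was rhythmic. The highest sum, 1350 FPKM, belonged to D-alanine CT20 replicate 3, in which Hspa5 was at 103 FPKM beside 97.1, 96.6 and 155 in the other libraries of its group. The second highest, 459 FPKM, belonged to D-alanine CT0 replicate 2. There Hspa5 was at 119 FPKM beside 92.5, 115 and 185 in its group, and Hyou1, at 26.2 FPKM, was the highest of all libraries. Of 13 pancreatic acinar markers 11 were at a median of 0, and of 6 adrenal cortex markers 5. Both tested acinar genes, Cela1 and Pnliprp1, were rhythmic. Markers called rhythmic numbered 4 of 5 for fibroblast, 4 of 5 for red blood cells and 3 of 4 for podocytes. Proximal tubule gave 3 of 8, the distal convoluted tubule 2 of 3, endothelium 2 of 5 and macrophages 1 of 4. Of all genes tested, 26.5% were rhythmic in the same fit. Collecting duct markers gave 0 of 6 rhythmic and inner medulla markers 0 of 4. The loop of Henle, hepatocyte, adipocyte and T cell lists also gave 0. No tested marker of any list was called for D-alanine in limma. Their part in the members' rhythm was not tested.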

How the data were processed

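Per the labels' protocols, kidney RNA was purified on columns and libraries came from a SMARTER kit for mRNA. The authors deposited FPKM per gene and library in 2 tables of 24 libraries, with replicates not pooled. The submitters' processing notes name the build GRCm38 (mm10). Which aligner, counter and filters were used is not stated. FPKM are not counts, so linear models (limma 3.58.1, R 4.3.3, eBayes with trend) were fitted to log2(FPKM + 1). They covered the 14922 genes that reached 1 FPKM in 4 or more libraries. Fold changes on this scale understate changes of low genes. The model held 12 groups, or a 24 h cosine and sine, with the table as an additive term. P-values are two-sided and were adjusted over all genes tested by Benjamini-Hochberg with a threshold of 0.05. The fits were tested on simulated data. Columns were matched to samples by their labels. Replicates carry no number in the labels and were numbered in accession order. P-values measure the spread between these kidneys.

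All 10 members are named. From each wider list at most 4 called genes with the smallest p are named, or the 2 nearest where none was called. The 6 genes of most similar profile outside all lists, clone names aside, are also named. The members and lists were chosen with earlier results of these data known. Steps between adjacent times, the window of peak times and the omission of 3 libraries were chosen after seeing the data.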

Additional observations from a re-analysis of the deposited data

Results flagged for a closer look

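In 5 of the 120 groups of 4 libraries checked (10 members in 12 groups), 1 library lay far from the other 3, by Dixon's criterion. Chance flags about 1 in 20 groups. In D-alanine kidneys, Hspa5 at CT20 was 155 FPKM in replicate 4, with the nearest library at 103 FPKM. Hyou1 at CT16 was 22.8 FPKM in D-alanine replicate 3, with the nearest at 16.3 FPKM. In vehicle kidneys, Calr at CT16 was 172 FPKM in replicate 1, with the nearest at 224 FPKM. Dnajb9 at CT8 was 9.06 FPKM in vehicle replicate 1, with the nearest at 15.6 FPKM, and this library held the lowest value of all 48 for 8 other members. Creld2 at CT4 was 25.3 FPKM in vehicle replicate 3, with the nearest at 17.7 FPKM.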

How the results depend on the processing

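No paired analysis was possible because the labels carry no replicate numbers within groups. The number of members rhythmic over both treatments was 8 under every alternative run except the first table alone, which gave 4. The first table alone also gave 0 rhythmic members in D-alanine and 0 in vehicle, 5 by time as a factor, 12 wider ER genes, 0 higher at CT16 than at CT12 and 0 lower at CT4 than at CT0. The second table alone gave 5 rhythmic in D-alanine, 5 higher at CT16 and 2 lower at CT4. Each table alone has fewer samples. With no table term, 5 members were rhythmic in D-alanine, 5 in vehicle and 18 wider ER genes, and 2 were lower at CT4. The count lower at CT4 was 3 with no filter and 3 with median centring. TPM gave 4 members for D-alanine over all times and 2 calls at single times, Hyou1 and Dnajb9 at CT0. The wider count was 27 without the 3 libraries. Leaving out 1 library gave 0 to 1 members for D-alanine over all times, 0 to 1 at single times and 2 to 6 lower at CT4. The D-alanine change of Pdia4 turned to -0.006 and that of Calr to -0.0233 with median centring, and that of Calr to -0.013 in the second table alone. The amplitude of Dnajb9 was 0.0041 without the 3 libraries, with its fitted peak at CT4.48, where all libraries gave CT22.4. Where no construction of the alternative is named, the cause was not tested.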
